A study of Mus musculus with 7 samples.

Results

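Sycp1 and Meioc are germline genes, and DNA methylation was measured upstream of both in mouse embryonic stem cells. The genes were picked with earlier results of these data known, and their members are all cytosine sites listed (mm10) in a short window upstream of each. Sycp1 had 4 sites and Meioc 9, together 13 of the 18189 sites of the table with the Uhrf1 rescues (the rescue table) and the same 13 of the 21989 sites of the table with the Mof knockdown (the knockdown table). Reduced representation bisulfite sequencing, which reads restriction fragments rich in CpG after unmethylated cytosines are converted, was applied to 7 libraries. All came from the embryonic stem cell line J1, kept on gelatin in medium with serum and leukemia inhibitory factor.

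Wild-type cells and Uhrf1-/- cells had 2 libraries each. The wild-type rescue (1 library) was Uhrf1-/- with tagged wild-type human UHRF1, and the 3KR rescue (1 library) was Uhrf1-/- with human UHRF1 carrying K667R, K668R and K670R, 3 changes from lysine to arginine. The Mof knockdown (1 library) was a stable knockdown of Mof, and the labels give it no other change. Per the study's design text, rescue plasmids were selected with hygromycin and single colonies were picked, so the clone and the transgene cannot be told apart in either rescue. Groups of 1 library have no replicate check, and their values carry no SD. Whether the libraries of a group stem from separate cultures is not given, so a p-value here reflects only how libraries of a group vary, which may be technical. The labelled cell type can be checked only by promoter methylation, since expression was not measured, and loss of Uhrf1 or Mof RNA cannot be checked for the same reason. Of 8 pluripotency genes, Nr5a2 had 1 site near its start in both tables, at 0% in every library, on as few as 6 reads in the rescue table. Esrrb had 4 sites near its start in the knockdown table only, also at 0% in every library there. None of 5 fibroblast genes had a site, so these values say little about the cell type.

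SYCP1 is the transverse filament protein of the synaptonemal complex, which holds paired chromosomes together in meiosis. MEIOC is a partner of the RNA-binding protein YTHDC2 and is needed for germ cells to go on through meiotic prophase. Promoters of many germline genes gain DNA methylation in the early embryo and stay silent in somatic cells. UHRF1 binds hemimethylated CpG behind the replication fork and brings in the methyltransferase DNMT1, which copies the mark to the new strand, and MOF is a lysine acetyltransferase.

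The Sycp1 sites lie on the plus strand between 102936699 and 102936884, 600 to 785 bases upstream of the start of the transcript the authors' table assigns, ENSMUST00000196988.4. Sycp1 itself is on the minus strand (RefSeq, chromosome 3, 102818499 to 102936100). The Meioc sites lie on the minus strand between 102664693 and 102664863, 725 to 895 bases upstream of ENSMUST00000100378.3. Meioc is on the plus strand (RefSeq, chromosome 11, 102665351 to 102682240), and the start used for its promoter window, 102665585, lies 234 bases inside this span. From the outer end of the span the Meioc sites are 488 to 658 bases away. The authors' table labels all 13 sites as promoter and as island shore, the flank of a CpG island. The 300 bases around 1 RefSeq start of each gene are shown because they are the CpG-rich promoters whose flank was measured. They come from RefSeq (GRCm38.p6, the assembly behind mm10), chr3:102936051-102936350 for Sycp1 (minus strand) and chr11:102665335-102665634 for Meioc (plus strand), and capitals mark each CpG:

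Sycp1: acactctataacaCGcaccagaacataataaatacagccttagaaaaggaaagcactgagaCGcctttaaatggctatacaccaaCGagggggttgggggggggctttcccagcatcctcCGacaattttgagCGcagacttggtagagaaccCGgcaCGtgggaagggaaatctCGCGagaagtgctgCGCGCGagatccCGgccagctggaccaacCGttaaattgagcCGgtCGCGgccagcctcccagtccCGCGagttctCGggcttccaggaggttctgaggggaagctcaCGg

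Meioc: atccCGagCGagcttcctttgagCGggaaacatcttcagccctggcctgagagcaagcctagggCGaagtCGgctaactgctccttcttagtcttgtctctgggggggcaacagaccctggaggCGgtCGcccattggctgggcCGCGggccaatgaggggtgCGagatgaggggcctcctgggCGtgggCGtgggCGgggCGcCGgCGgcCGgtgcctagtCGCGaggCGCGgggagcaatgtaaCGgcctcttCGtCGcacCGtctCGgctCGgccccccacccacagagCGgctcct

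The Sycp1 window holds 21 CpG and the Meioc window 28, beside a median of 7 over 32851 promoter windows of this length. None of the listed sites falls inside either window. The nearest site is 349 bases from the Sycp1 window and 472 bases from the Meioc window, so the values that follow describe the flank and not the core promoter. On both strands, the E-box letters CACGTG occur once in the Sycp1 window and not in the Meioc window, beside 7.15% of all windows with them. The letters GCGGGA, part of the E2F consensus, occur once in each, beside 19.98% of all windows. Each of these motifs contains a CpG, and a match of letters does not show binding.

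At these sites the libraries gave 5 to 57 reads, beside medians of 10 to 22 per site over the tables. At Sycp1, Uhrf1-/- library 1 had 5 to 10 reads and the 3KR rescue 6 to 12, below their medians of 14. The wild-type rescue had 27 to 52 there, above its median of 22. Depth was uneven along each fragment in the same way in every library. The 2 middle Sycp1 sites and the 4 Meioc sites from 102664737 to 102664787 had 1.78 to 2.05 times the reads of the other sites of the gene. The sources used here do not say whether both mates of a read pair were counted. Totals at the middle sites were even in 10 of 14 cases at Sycp1 and 22 of 28 at Meioc, and at the other sites in 8 of 14 and 15 of 35. If mates were counted separately there, the intervals of the middle sites are too narrow and the Fisher p-values on their reads too small, so each Fisher call at them is given again with those reads halved (methylated and unmethylated apart, odd counts rounded down). The sites of a gene are close enough to share reads, and the reads carry no molecular identifiers, so intervals cover counting error only and sites are not replicates. Where reads are pooled over sites, a read that covers several sites is counted at each, so pooled intervals may be too narrow.

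One site of each gene stood apart from its neighbours. At Sycp1 102936884 no read was methylated in any of the 7 libraries, from 5 reads in the shallowest (Uhrf1-/- library 1) to 27 in the deepest (the wild-type rescue). At Meioc 102664693 only Uhrf1-/- library 2 had a methylated read, 1 of 7. The others had 0 of 11 and 0 of 19 (wild type), 0 of 14 (Uhrf1-/- library 1), 0 of 28 (wild-type rescue), 0 of 8 (3KR rescue) and 0 of 9 (Mof knockdown). Its neighbour 102664698, a few bases away, was methylated in 8 of 11 and 18 of 19 wild-type reads. Each of these sites is the 3′-most listed site along its strand.

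The same position was often low elsewhere in the tables. Sites of one strand were chained into runs by gaps of at most 200 bases, and runs of at least 3 sites were kept. Where the other sites of a run averaged at least 50% in wild type, the 3′-most site was at 10% or less in 25.3% of 1765 runs of the rescue table, the 5′-most site in 1.35% of 1554 and inner sites in 1.40% of 3362. With no methylated read in any library, the counts were 157 of the 1765 3′-most sites, 0 of the 1554 5′-most and 5 of the 3362 inner sites. In this assay the repair of cut ends can place an unmethylated cytosine at the 3′ end of a fragment, and its part in these values was not tested. Gene means are therefore given over all sites and again without this site.

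**Figure D1:**
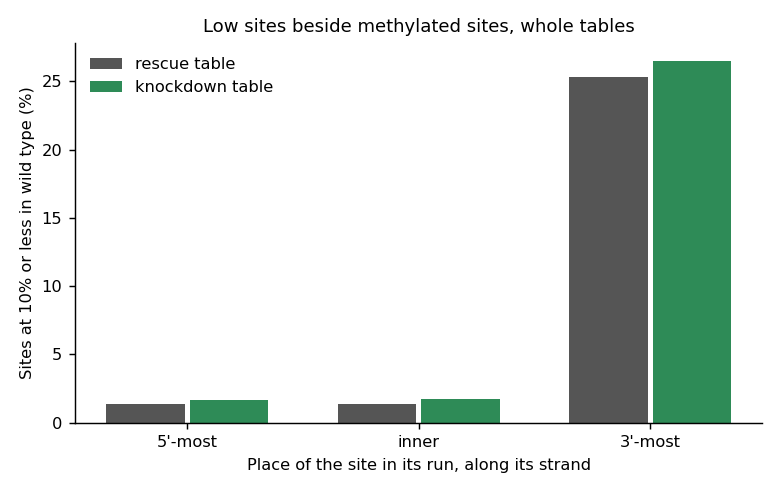
Share of sites at 10% or less methylation in wild type (y axis, percent) by place in a run of sites of one strand (x axis), among sites whose run mates averaged at least 50%, for the rescue table (grey) and the knockdown table (green). The 3′-most sites reach 25.3% and 26.5%, and the other places stay at or under 1.76%.

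The Sycp1 flank was highly methylated in wild type and nearly unmethylated without Uhrf1. At 102936699 the wild-type libraries had 8 of 11 and 17 of 18 methylated reads, against 0 of 5 and 0 of 8 with Uhrf1 deleted. The site 102936787 had 22 of 22 and 28 of 32, against 0 of 9 and 0 of 15. The site 102936798 had 18 of 20 and 28 of 32, against 0 of 10 and 2 of 15. At these 3 sites both wild-type libraries lay above both Uhrf1-/- libraries. Averaged over its 4 sites, Sycp1 had a wild-type level of 66.5% ± 1.19 and an Uhrf1-/- level of 1.67% ± 2.36 (SD, n = 2 each), which differ by -64.9 percentage points (edgeR adjusted p = 6.17e-05). Without the 3′-most site it was 88.7% ± 1.58 and 2.22% ± 3.14 (SD, n = 2 each), a difference of -86.5 points (edgeR adjusted p = 5.36e-05).

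These p-values come from the quasi-likelihood test of edgeR, fitted to methylated and unmethylated reads summed per region and adjusted by Benjamini-Hochberg over all 6146 regions tested. A region is a group of sites chained by gaps of at most 200 bases, and it was called at an adjusted p under 0.05 with a difference of at least 20 points. Both genes were called lower in Uhrf1-/-, as were 55.7% of all regions (3422 of 6146), so a call is common in this comparison. With either Uhrf1-/- library left out, none of 6099 regions was called by edgeR, although 2554 and 2735 were lower at a p under 0.05 before adjustment, so neither gene could be called (adjusted p = 0.0901 without library 1 and 0.0785 without library 2, for each gene). The differences were then -63.2 and -66.5 points at Sycp1 and -51.4 and -47.7 at Meioc.

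The Meioc flank was less evenly methylated in wild type. Apart from the 3′-most site, the 4 middle sites were lowest. At 102664737, 14 of 22 and 15 of 36 wild-type reads were methylated, at 102664779 14 of 22 and 18 of 38, at 102664785 12 of 22 and 18 of 37, and at 102664787 16 of 22 and 24 of 38. By group mean the 3 sites nearest the gene were higher, although 102664863 was not above all of the middle sites in library 1. They had 10 of 11 and 19 of 19 methylated reads at 102664852, 9 of 11 and 15 of 19 at 102664860, and 7 of 11 and 18 of 20 at 102664863. The wild-type libraries differed by 26.4 points at 102664863 and by 22.0 points at 102664698, with library 2 higher at both, and by -22.0 points at 102664737, with library 2 lower, yet their means over the 9 sites were 62.6% and 62.7%.

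Without Uhrf1 the Meioc flank fell, but not evenly. The 4 middle sites had 0 of 28 and 0 of 12 methylated reads at 102664737, 2 of 32 and 2 of 13 at 102664779, 0 of 30 and 0 of 13 at 102664785, and 4 of 31 and 0 of 13 at 102664787. At 102664698 the reads were 1 of 16 and 0 of 7, and at 102664860 1 of 16 and 0 of 6. The other 2 sites near the gene kept methylation in both libraries, with 9 of 16 and 2 of 7 at 102664852 and 8 of 17 and 3 of 7 at 102664863. Between these 2 sites lies 102664860, at 3.12% ± 4.42 (SD, n = 2), beside 42.4% ± 19.6 and 45.0% ± 2.97 (SD, n = 2 each). Of the 8 Meioc sites at or over 50% in wild type, 2 stayed at or over 40% in Uhrf1-/-, and of 3 such Sycp1 sites 0 did; among 9892 such sites of the rescue table, 6.99% did. The mean over 9 sites went from 62.7% ± 0.0699 to 13.1% ± 2.66 (SD, n = 2 each), a difference of -49.6 points (edgeR adjusted p = 0.00116). Without the 3′-most site it went from 70.5% ± 0.0786 to 13.9% ± 4.26 (SD, n = 2 each; edgeR adjusted p = 0.00204). The Meioc call was also lost without wild-type library 2 (edgeR adjusted p = 0.0512).

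**Figure D2:**
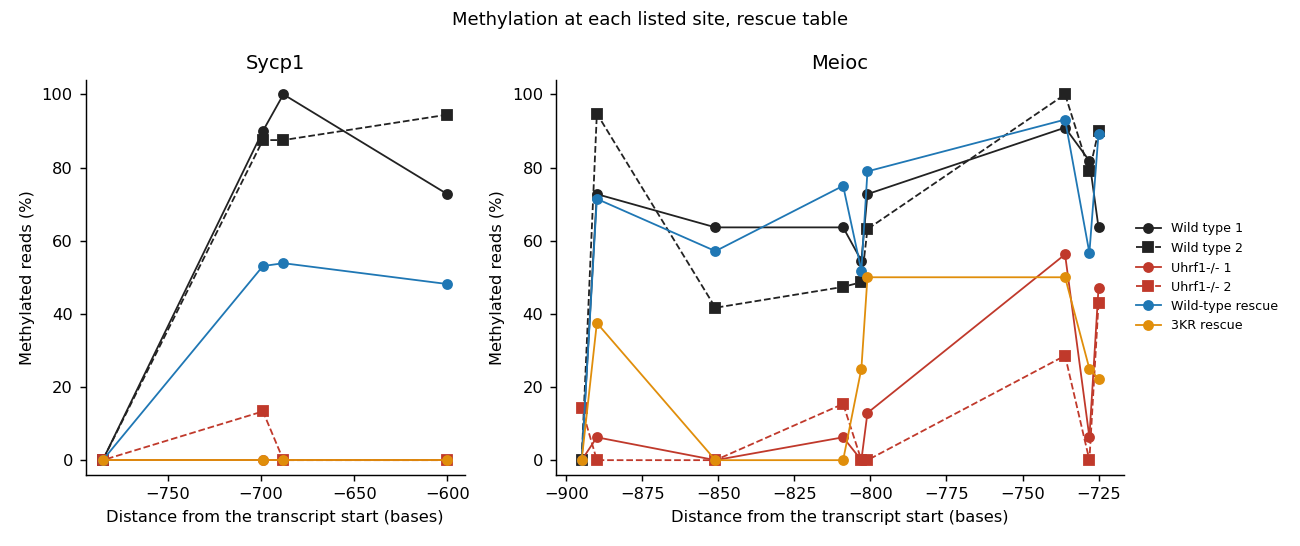
Methylated reads in percent (y axis) at each listed site against its distance from the transcript start in bases (x axis), 1 line per library of the rescue table, with dashed lines for second libraries. At Sycp1 the wild-type rescue lies between 48.1% and 53.8% at 3 sites and the 3KR rescue at 0%; at Meioc the wild-type rescue averages 63.7%, beside 62.6% and 62.7% in the wild-type libraries.

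Single sites were tested where the 4 libraries compared had at least 10 reads. This left 1 Sycp1 site and 4 Meioc sites, and 4 of these 5 were called lower in Uhrf1-/-, beside 38.1% of 3917 sites tested. They were Sycp1 102936798 (-82.1 points, edgeR adjusted p = 0.0221), Meioc 102664737 (-52.7 points, edgeR adjusted p = 0.0284), 102664785 (-51.6 points, edgeR adjusted p = 0.0265) and 102664787 (-61.5 points, edgeR adjusted p = 0.0448). Meioc 102664779 differed by -44.7 points and was not called (edgeR adjusted p = 0.0951), but limma called it (adjusted p = 0.0417). The call at 102664787 was lost with only the 4 libraries compared in the fit (edgeR adjusted p = 0.0529) and with a minimum of 5 reads (0.0554). With 1 library left out, 0 to 34 sites of the table were called, so the loss of all 4 calls there says little. At Sycp1 102936798 the difference then ranged from -88.8 to -75.4 points.

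In the wild-type rescue the Meioc flank was near the wild-type level, while the Sycp1 flank stood between Uhrf1-/- and wild type. At Sycp1 the wild-type rescue had 13 of 27 methylated reads at 102936699, 28 of 52 at 102936787 and 26 of 49 at 102936798. These 3 sites, at 48.1%, 53.8% and 53.1%, lay below both wild-type libraries and above both Uhrf1-/- libraries. Fisher's exact test on the reads, two-sided and adjusted over all sites with at least 10 reads in both libraries, compares libraries and not conditions. It called the 3 sites lower than in wild-type library 2 (adjusted p = 0.0149, 0.0189 and 0.0173) and 102936787 lower than in library 1 (adjusted p = 0.00173). With the middle reads halved, 102936787 and 102936798 were not called against library 2 (adjusted p = 0.175 and 0.170), nor 102936787 against library 1 (adjusted p = 0.0722). Such calls made up 9.74% of 12983 sites against library 2 and 4.37% of 8506 against library 1.

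The Sycp1 mean in the wild-type rescue was 38.8%, -27.8 points from wild type and 37.1 points above Uhrf1-/-. This is 57.2% of the lost methylation, with the 3′-most site or without it. Of 6373 regions, 20.5% were at least 20 points below wild type, as were 30.7% of the 3915 regions at or over 50% in wild type. Sycp1 is thus 1 of many regions below wild type in this library. Both genes were at least 20 points above Uhrf1-/-, as were 72.1% of regions. Of the 13 sites, 4 were at least 20 points below the wild-type mean, 3 of Sycp1 and 1 of Meioc, beside 17% of 7430 sites with at least 10 reads. The 17% includes sites too low in wild type to fall this far.

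At Meioc the wild-type rescue had 20 of 28 methylated reads at 102664698, 32 of 56 at 102664737, 42 of 56 at 102664779 and 29 of 56 at 102664785. It had 45 of 57 at 102664787, 27 of 29 at 102664852, 17 of 30 at 102664860 and 25 of 28 at 102664863. Only 102664860, at 56.7%, was at least 20 points below the wild-type mean among the 9 sites, and none was that far above it. The difference at 102664860 was not called against either wild-type library (Fisher's exact test, adjusted p = 0.515 and 0.383). The site 102664779 came close, at 19.5 points above, and was not called either (Fisher's exact test, adjusted p = 0.893 and 0.0580). The authors' deposited comparison with wild type puts it 21.7 points higher, with a q-value of 0.0484. The mean was 63.7%, 1.03 points from wild type and 50.6 points above Uhrf1-/-, so that 102% of the lost methylation was regained. The reads pooled over sites gave 64.4% (Wilson 95% interval 59.4% to 69.1%), beside 62.9% and 59.2% in the wild-type libraries. Whether the regained share differed between the genes was not tested, since there is 1 rescue library.

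**Figure D3:**
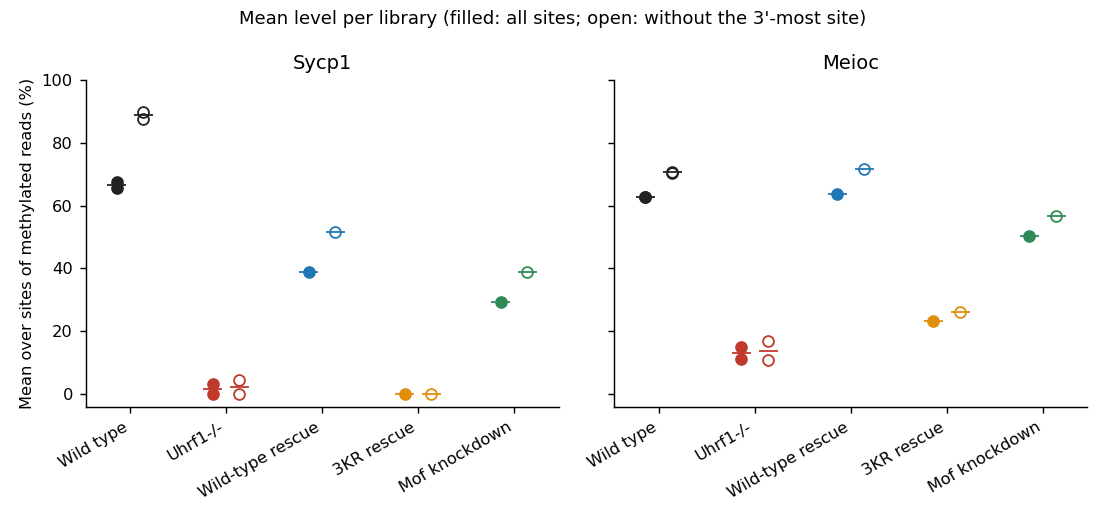
Mean over sites of methylated reads in percent (y axis) for each library by group (x axis), over all sites (filled) and without the 3′-most site (open), with a short line at each group mean. Sycp1 in the wild-type rescue (38.8%) lies between wild type and Uhrf1-/-, and Meioc (63.7%) at the wild-type level.

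In the 3KR rescue Sycp1 was at the Uhrf1-/- level and Meioc 10.2 points above it. Sycp1 had 0 methylated reads of 6 at 102936699, of 12 at 102936787 and of 12 at 102936798. Pooled over the 4 sites this is 0 of 36 reads, with a Wilson 95% upper bound of 9.64%. A read that covers several sites is counted at each, so this bound may be too low. The 6 reads at 102936699 alone allow up to 39.0%. The mean, 0%, was -38.8 points from the wild-type rescue and -1.67 points from Uhrf1-/-, less than the SD of 2.36 between the Uhrf1-/- libraries. Fisher's exact test between the rescue libraries called 102936787 and 102936798 lower in 3KR (adjusted p = 0.00207 and 0.00211), beside 45.9% of 11900 sites called. With the middle reads halved both missed the threshold (adjusted p = 0.0504 and 0.0503).

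At Meioc the 3KR rescue was mixed along the fragment. It had 3 of 8 methylated reads at 102664698, 0 of 16 at 102664737, 0 of 16 at 102664779 and 4 of 16 at 102664785. It had 8 of 16 at 102664787, 4 of 8 at 102664852, 2 of 8 at 102664860 and 2 of 9 at 102664863. Fisher's exact test between the rescues called 102664737 and 102664779 lower in 3KR (adjusted p = 0.000108 and 4.53e-07) and did not call 102664785 or 102664787 (adjusted p = 0.160 and 0.0613). The first 2 calls held with halved reads (adjusted p = 0.0118 and 0.000797), on 8 reads each in the 3KR rescue, under the minimum of 10. The latter site, 8 bases from a site with no methylated read, was 43.5 points above the Uhrf1-/- mean, and 102664785 was 25 points above it. Among sites with at least 10 reads, 15.8% of 7287 were at least 20 points above Uhrf1-/-. Other Meioc sites lay on both sides of the Uhrf1-/- mean. From that mean, 102664863 was -22.7 points away and 102664779 -10.8, while 102664698 and 102664860 were 34.4 and 21.9 points above it. At 102664698, 102664860 and 102664863 the 3KR rescue had 8 or 9 reads and Uhrf1-/- library 2 had 6 or 7. These depths are under the minimum of 10, so the differences there rest on few reads.

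The Meioc mean in the 3KR rescue was 23.3%, -40.4 points from the wild-type rescue and 10.2 points above Uhrf1-/-. That gap is wider than the SD of 2.66 between the Uhrf1-/- libraries but under the 20 points used for a call, which 16% of regions passed in this direction. The SD rests on 2 libraries and does not cover counting error in the 3KR rescue. The pooled reads gave 21.9% (Wilson 95% interval 15.1% to 30.7%) in the 3KR rescue, 12.5% (8.61% to 17.8%) in Uhrf1-/- library 1 and 9.41% (4.85% to 17.5%) in library 2. The 3KR interval overlaps both Uhrf1-/- intervals. Both genes were at least 20 points below the wild-type rescue, as were 65.9% of regions, and 84.6% of those at or over 50% in wild type. Against wild type itself the 3KR rescue differed by -66.5 points at Sycp1 and -39.4 points at Meioc, and 69.2% of regions were at least 20 points lower.

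**Figure D4:**
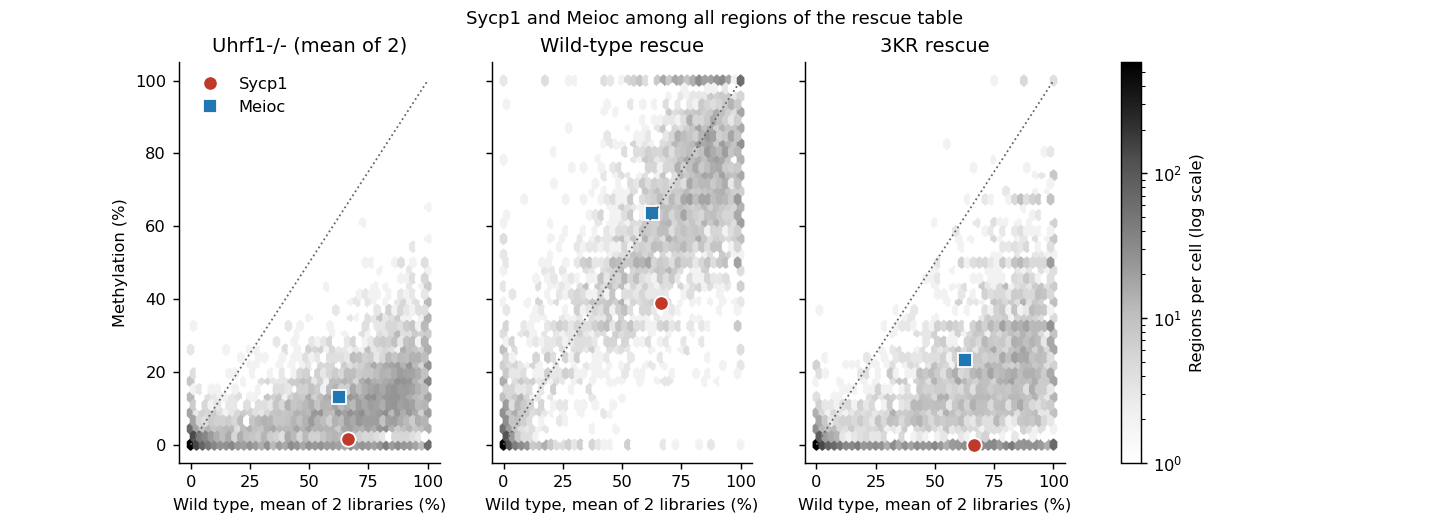
Level of each region in Uhrf1-/-, the wild-type rescue and the 3KR rescue (y axes, percent) against wild type (x axis, percent); shading counts regions on a log scale and the dotted line marks equal levels. Meioc (square) lies near the line in the wild-type rescue at 63.7%, and Sycp1 (circle) below it at 38.8%.

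Knockdown of Mof went with lower methylation at Sycp1 and a smaller difference at Meioc. Sycp1 in the knockdown had 3 of 6 methylated reads at 102936699, 8 of 12 at 102936787 and 0 of 12 at 102936798. The last value has a Wilson 95% upper bound of 24.2%, or 39.0% with the reads halved, beside 90% and 87.5% in the wild-type libraries. The site 11 bases away on the same strand had 66.7% (39.1% to 86.2%). Fisher's exact test could be run at 6 sites of the genes with at least 10 reads. It called 102936798 lower against each wild-type library (adjusted p = 0.000149 and 1.80e-05), beside 3.41% and 8.57% of sites, and none of the other 5. With the middle reads halved it was still called (adjusted p = 0.0267 and 0.00874), on 6 knockdown reads, under the minimum of 10. The authors' deposited table gives it a q-value of 2.78e-07, and q-values of at least 0.0971 at the other 12 sites. Of 2032 sites at or over 80% in wild type with at least 10 reads, 3 had no methylated read in the knockdown (0.148%), and this is 1 of them. That class follows the values of the site itself, so its share is a description and not a test, from 1 knockdown library.

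The Sycp1 mean in the knockdown was 29.2%, -37.4 points from wild type, and 38.9% against 88.7% ± 1.58 (SD, n = 2) without the 3′-most site. A level at least 20 points below wild type was found in 25.7% of 7403 regions of the knockdown table, and in 34.6% of the 4627 regions at or over 50% in wild type. Between the wild-type libraries, 10.5% of the rescue table's regions were at least 20 points lower in library 2 than in library 1, and 14.7% higher.

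At Meioc the knockdown had 5 of 9 methylated reads at 102664698, 4 of 18 at 102664737, 6 of 18 at 102664779 and 10 of 18 at 102664785. It had 16 of 18 at 102664787, 6 of 8 at 102664852, 4 of 9 at 102664860 and 7 of 9 at 102664863. By these values 102664737 was -30.4 points from the wild-type mean and 102664787 was 20.9 points above it. Fisher's exact test called neither site against either wild-type library. At 102664787 the difference reached 20 points against library 2 but not against library 1. At 102664737 the wild-type libraries themselves differed by -22.0 points. Whether these sites changed in opposite directions therefore cannot be decided from 1 knockdown library. Of the 6 sites of both genes with at least 10 reads, 4 were at least 20 points lower than wild type, beside 21.2% of 6679 sites, and 1 higher, beside 4.34%. The 21.2% includes sites too low in wild type to fall this far, so it is not matched to these 6. Of the 4, 102664737 and 102664779 were -41.4 and -30.3 points from library 1 but -19.4 and -14.0 from library 2. The Meioc mean was 50.3%, -12.4 points from wild type, and the pooled 50% (Wilson 95% interval 41.0% to 59.0%) overlaps the intervals of both wild-type libraries (54.8% to 70.4% and 52.9% to 65.2%).

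**Figure D5:**
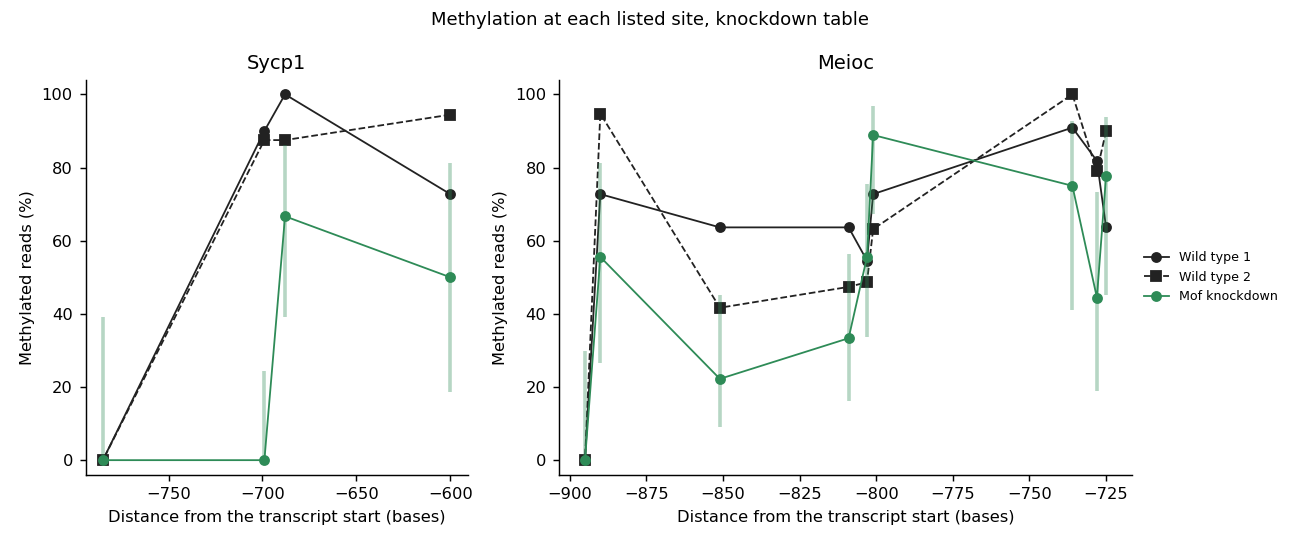
Methylated reads in percent (y axis) at each listed site against distance from the transcript start in bases (x axis) for the libraries of the knockdown table, with Wilson 95% intervals as pale bars for the Mof knockdown. At Sycp1 the knockdown measures 0% at a site where wild type measures 90% and 87.5%, beside 66.7% at the site 11 bases away.

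From high to low, the Sycp1 means ran from wild type (66.5%) to the wild-type rescue (38.8%), the Mof knockdown (29.2%), Uhrf1-/- (1.67%) and the 3KR rescue (0%). The wild-type rescue and the knockdown are not separated by their pooled intervals (35.7% to 51.1% and 18.0% to 46.9%), nor are Uhrf1-/- and the 3KR rescue by the Uhrf1-/- spread. Pooled intervals count a read at each site it covers, so they may be too narrow. The Meioc order was the wild-type rescue (63.7%), wild type (62.7%), the knockdown (50.3%), the 3KR rescue (23.3%) and Uhrf1-/- (13.1%). Here the pooled intervals of wild type overlap those of the wild-type rescue and of the knockdown, and an overlap does not show equal levels. The 3KR rescue was 10.2 points above Uhrf1-/-, more than the SD of 2.66 between the Uhrf1-/- libraries, although their pooled intervals overlap. Without the 3′-most site the gap was 12.4 points and the SD 4.26. This SD rests on 2 libraries and does not cover counting error in the 3KR rescue. The rescue comparisons and the knockdown comparison share the same wild-type libraries, whose reads were identical in both tables at all 13 sites.

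Few other germline genes could be read. Of a list of 60 meiotic and methylation-silenced genes, 51 had a start in the RefSeq table and 5 had a site within 1000 bases of it in the rescue table. They were Sycp1, Meioc, Hormad2, which encodes a protein of meiotic chromosome axes, Smc1b, a meiotic cohesin subunit, and Tdrd1, a Tudor protein of the piRNA pathway. Of the 5, 3 lay in regions called lower in Uhrf1-/-, beside 55.7% of all regions, and the median difference was -31.0 points, beside -49.2 over all regions. The 3 were Sycp1, Meioc and Hormad2, and Sycp1 and Meioc had been picked with earlier results of these data known. Hormad2 (chromosome 11, 4440888 to 4441032, 9 sites) had a wild-type level of 33.4% ± 0.627 and an Uhrf1-/- level of 2.39% ± 1.42 (SD, n = 2 each; edgeR adjusted p = 0.00091). Its single-library levels were 17.4% with wild-type UHRF1, 7.58% with the 3KR mutant and 16.7% after Mof knockdown. Like Sycp1, it was between Uhrf1-/- and wild type in the wild-type rescue. Smc1b (14 sites) was at 0% in the wild-type and Uhrf1-/- libraries. The 1 Tdrd1 site was at 0% in both wild-type libraries, with an Uhrf1-/- level of 7.14% ± 10.1 (SD, n = 2), and was not called. The knockdown table also held Spata22, a meiotic recombination gene (6 sites), at 91.0% ± 2.67 among wild-type libraries (SD, n = 2) and at 53.3% after knockdown.

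Promoter regions of at least 3 sites were ranked by the root mean square difference of their levels from each gene over the 6 libraries of the rescue table, among 490 others. This is a description, since levels close to those of a chosen gene are found by the ranking itself. Closest to Sycp1 were Tmem255b (7.45 points), Pgm5 (9.63 points) and Atf7ip (9.79 points), the last encoding a partner of the histone methyltransferase SETDB1. With wild-type UHRF1 Tmem255b measured 33.6%, and with the 3KR mutant 4.17%. Closest to Meioc were Gm30422 (4.205 points), Chadl (5.17 points) and Gstm7 (6.50 points), a glutathione transferase. With wild-type UHRF1 Chadl measured 65.3%, and with the 3KR mutant 26.7%.

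Within 50 kb of the genes, the rescue table listed no further site, and the knockdown table listed 1 near Sycp1 and 11 near Meioc. The site near Sycp1 (chromosome 3, 102937676) had 6 of 6 and 2 of 6 methylated reads in wild type and 4 of 6 in the Mof knockdown. Near Meioc, 4 sites in an intron of Ccdc43 (chromosome 11, 102695427 to 102695507) had 66.7% to 100% in the wild-type libraries and 0% to 33.3% in the knockdown, on 5 or 6 reads each. The other 7 sites measured 25% to 100% in wild type and 20% to 100% in the knockdown.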

How the data were processed

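Methylation was measured by double-enzyme reduced representation bisulfite sequencing in 7 libraries of J1 cells. Per the submitters' processing notes, the authors used cutadapt, Trim Galore and BSMAP 2.73 with mm10; how methylation was called and tested is not given in the sources used here. Per the file headers, the deposited tables hold read counts per site and strand (total, methylated, unmethylated), the fraction of methylated reads, and p-values and q-values of each group against wild type with a difference in percentage points. No listed site had fewer than 5 reads in any library. The tables held 257860 to 668870 reads per library.

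Percentages were computed from the counts, and gene levels are unweighted means over sites. Groups follow the sample titles. The name of the wild-type rescue column ends in a digit the labels do not explain. Wild type and Uhrf1-/- were compared with edgeR 4.0.16 (limma 3.58.1, R 4.3.3), with the spread estimated over 6 libraries, and regions or sites entered if they had both methylated and unmethylated reads. Groups of 1 library were compared by size (20 points, and at least 10 reads per site) and by Fisher's exact test between libraries. The edgeR fit was checked on simulated counts. With 2 libraries against 2, the smallest p of an exact permutation test is 0.333, and none was run. Alternatives were limma, other read minimums, a shorter gap between sites, pooled reads, a replicate block, leaving out each library or the 3′-most site, and halving reads at the middle sites; the last 2 were chosen after seeing the data. The text names every listed site of both genes, the list members with a site near a start, and the 3 closest regions per gene. Members and lists were chosen with earlier results of these data known. No mm10 genome was used, so the sequence at the sites is not shown. Python 3.11.15, numpy 2.4.6, pandas 2.3.3, scipy 1.17.1 and matplotlib 3.10.9 were used.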

Additional observations from a re-analysis of the deposited data

How the results depend on the processing

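The direction of the Uhrf1-/- difference held at both genes under each alternative run, and no difference of either gene changed sign; the 3KR rescue minus Uhrf1-/- at Sycp1 became 0 without Uhrf1-/- library 2. Leaving out 1 library at a time gave Uhrf1-/- minus wild-type differences of -66.5 to -63.2 points at Sycp1 and -51.4 to -47.7 at Meioc, 0 to 1986 regions called lower (3422 with all libraries) and 0 to 34 sites (1492 with all). The counts of 0 were edgeR's without Uhrf1-/- library 1 or 2 for regions, where 2554 and 2735 were lower at a p under 0.05 before adjustment, and without library 2 for sites, where 1554 were; limma, with all libraries, called 3524 regions and 1671 sites. Wild-type library 2 alone took the region count to 591 when left out. Region calls numbered 838 with at least 10 reads in every library; site calls numbered 4278 at 5 reads and 119 at 20, where different numbers of sites were tested.

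With a replicate block, edgeR called 540 sites and 2526 regions lower. Both genes stayed called (adjusted p = 0.000421 for Sycp1 and 0.00303 for Meioc), and the 4 single-site calls did not (adjusted p = 0.0596 to 0.105). Libraries of the same number did not deviate together (correlation 0.0203 over regions). The labels do not say what the number stands for, and this correlation cannot show that such libraries share no batch.

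Sites at least 20 points apart in either direction numbered, without 1 library, 1913 to 2265 for the 3KR rescue against Uhrf1-/- (1353 with all), 2613 to 4191 for the wild-type rescue against wild type (1898), 3755 to 6786 for the 3KR rescue against wild type (3468) and 2164 to 3295 for the Mof knockdown (1705); more sites then had 10 reads. Pooling reads gave, for Sycp1 and Meioc in turn, 41.1 and 53.4 points for the wild-type rescue minus Uhrf1-/-, -30.8 and 3.34 for it minus wild type, -74 and -39.2 for the 3KR rescue minus wild type, and -43.4 and -11.1 for the Mof knockdown minus wild type. Sites with at least 10 reads in every library gave 46.4 and 61.4, -35.7 and 8.80, -88.8 and -38.2, and -57.9 and -6.92 in that order, -53.1 for 3KR minus the wild-type rescue at Sycp1, and -6.67 and 14.4 for 3KR minus Uhrf1-/-. Without the 3′-most site the order gave 49.5 and 57.8, -37.0 and 1.16, -88.7 and -44.3, and -49.8 and -13.9, with -51.7 for 3KR minus the wild-type rescue at Sycp1. Each gene's sites lie on 1 strand, so the other strand gave no value. Depth limits single sites: a count of 0 of 12 allows up to 24.2% (Wilson 95%), and 39.0% if mates were counted separately and the reads are halved, an alternative chosen after seeing the data that ended 5 Fisher calls, all at Sycp1.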
